A study of Mus musculus with 4 samples.

Results

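Hsd11b1 and Crhbp are both genes of stress-hormone biology, and both had transcripts on arrays of sorted mouse B cells, where they differed between the sorted populations in opposite directions. Each is represented by 1 probe whose name holds its NCBI Gene ID (15483 for Hsd11b1 and 12919 for Crhbp), so the members are 2 of the 3983 tested genes with a symbol (of 8109 genes with a matched probe). Both genes were chosen with their levels on these same arrays known. Their differences between the populations are therefore given as a description, and no test of them is reported. Both stayed in the fit over all features and in its counts.

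Of 4 single-colour bead arrays, 2 held RNA of GFP-positive cells, which the labels call pre-plasmablasts, and 2 held RNA of GFP-negative cells, called B cell blasts in the cell type field (the sample titles use that name for both populations). All 4 arrays were of prdm1-/- cells of C57BL/6 background, so both populations lack Prdm1, the gene of the plasma-cell regulator Blimp-1, and no Prdm1-sufficient cells were compared. All cells had been cultured with IL-5 and IL-4, each at 10 U/mL, together with CD40 ligand, and were sorted on day 4 by GFP fluorescence. The labels do not name the locus that carries GFP, and nothing in them ties the replicates to separate mice or cultures, so the p-values below cover the spread from array to array alone, and this may be technical.

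Hsd11b1 encodes 11β-hydroxysteroid dehydrogenase type 1, an enzyme of the endoplasmic reticulum that turns inert 11-keto glucocorticoids into their active forms (in rodents, 11-dehydrocorticosterone into corticosterone). It draws its NADPH from hexose-6-phosphate dehydrogenase inside the same compartment, which in turn needs glucose-6-phosphate brought in by the transporter Slc37a4. In human monocytes the enzyme is known to be induced by IL-4. Crhbp encodes a secreted glycoprotein that binds corticotropin-releasing hormone (CRH) and urocortin and keeps them from their receptors, and it is best known from brain and pituitary. CRH starts the axis that ends in adrenal glucocorticoid release, so the carrier protein acts at the top of that axis and the enzyme acts in target tissues.

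The 250 bases before a RefSeq start of each gene are shown so that both promoters can be read side by side with the motif matches in them. The sequences are from RefSeq, build GRCm38.p6, minus strand, at chr1:193242361-193242610 for Hsd11b1 and chr13:95444832-95445081 for Crhbp, and both members matched. Capitals mark those motif matches named below that lie within the printed bases, and a match after the start is not printed.
Hsd11b1: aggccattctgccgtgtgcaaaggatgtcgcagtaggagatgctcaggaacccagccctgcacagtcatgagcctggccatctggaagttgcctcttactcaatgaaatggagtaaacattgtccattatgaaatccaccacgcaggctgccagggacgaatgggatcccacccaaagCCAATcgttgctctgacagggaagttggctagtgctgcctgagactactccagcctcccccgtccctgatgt
Crhbp: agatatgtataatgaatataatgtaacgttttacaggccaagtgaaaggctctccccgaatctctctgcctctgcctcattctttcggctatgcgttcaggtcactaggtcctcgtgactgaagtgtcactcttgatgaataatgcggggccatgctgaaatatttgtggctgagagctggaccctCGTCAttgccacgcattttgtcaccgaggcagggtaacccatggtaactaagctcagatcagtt

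The search ran on both strands over 250 bases before and 50 after each start. The Hsd11b1 window held 1 CCAAT box (CCAAT), whose first base lies at -72 from the start, and 37.4% of 32851 RefSeq windows of that length hold one. The Crhbp window held 1 cyclic AMP response half-element (TGACG, read on the opposite strand), at -64, which 20.8% of windows hold. It also held 1 TATA box (TATAAA) at 31 after the annotated start, which 13.6% of windows hold. Neither window held a glucocorticoid receptor half-site (AGAACA, in 19% of windows), a C/EBP motif (TTGCNNAA, 10.8%), an AP-1 motif (TGANTCA, 7.81%), a STAT6 motif (TTC and GAA with 4 bases between them, 6.95%) or an octamer (ATGCAAAT, 1.74%). No match overlapped another. The Hsd11b1 start used here is not its only one, since RefSeq lists several transcripts of the gene, and the files do not say which of them the probe reads. The GC content of the printed bases was 54.4% for Hsd11b1 and 47.2% for Crhbp, against a median of 52.4% over all windows.

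Hsd11b1 read higher in GFP-positive cells. Its normalized intensity on the deposited log2 scale was 10.93 and 11.22 on the GFP-positive arrays, against 9.79 and 9.57 on the GFP-negative arrays. Both GFP-positive values lay above both GFP-negative values, and the closest pair across the groups was 1.14 apart, while the widest pair within a group was 0.29 apart. Averages were 11.08 ± 0.21 for GFP-positive and 9.68 ± 0.15 for GFP-negative cells (SD, n = 2 each), a difference of +1.40, or 2.63-fold if the scale is read as plain log2. The probe was detected on all 4 arrays, with a detection p-value of at most 6.2e-04.

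Crhbp read lower in GFP-positive cells. Its normalized intensity was 8.67 and 8.71 on the GFP-positive arrays, against 10.70 and 10.76 on the GFP-negative arrays. The replicates of each group nearly coincided, with a widest gap of 0.05 within a group and a smallest gap of 1.99 between the groups. Averages were 8.69 ± 0.03 for GFP-positive and 10.73 ± 0.04 for GFP-negative cells (SD, n = 2 each), a difference of -2.04, or 4.11-fold lower in GFP-positive cells on the same reading of the scale. Crhbp was still detected on all 4 arrays, with a detection p-value of at most 0.00124. Its lowest array value lay 0.51 above 8.16, the upper edge of the central 95% of values from probes detected on no array, and what the authors' transformation does to differences so near that edge is not known. The lowest Hsd11b1 value lay 1.41 above it. In bulk RNA of sorted cells, fewer cells that express a gene and less of its RNA per cell cannot be told apart.

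**Figure D1:**
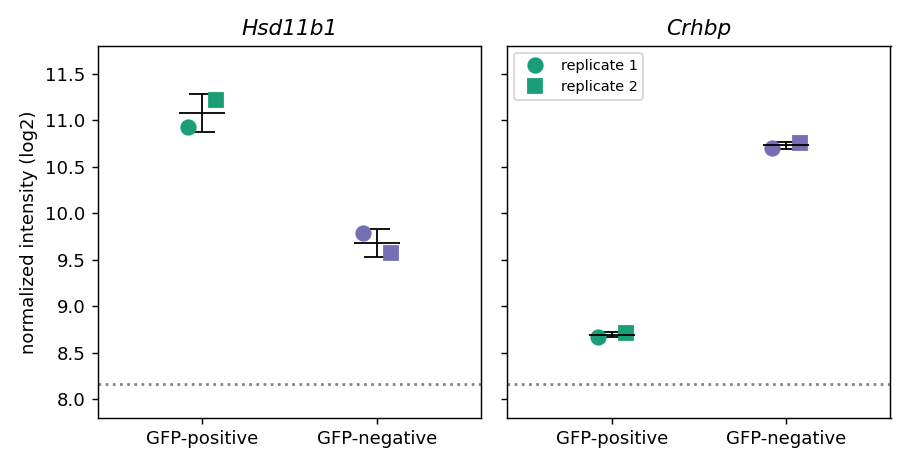
Normalized intensity (log2) of Hsd11b1 and Crhbp on each array, GFP-positive left and GFP-negative right, with circles for replicate 1, squares for replicate 2, and the mean ± SD in black. Hsd11b1 averages 11.08 against 9.68 and Crhbp 8.69 against 10.73, and the dotted line at 8.16 is the upper edge of the central 95% of values from undetected probes. Levels of different probes are not comparable with each other.

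The members differed in how well their replicates matched. The SD pooled over both groups was 0.18 for Hsd11b1, larger than that of 86.1% of the 15215 tested features, and 0.03 for Crhbp, larger than that of 11.1% of them. The median over all features was 0.09. Between arrays of the same replicate number, the Hsd11b1 difference was +1.14 for number 1 and +1.65 for number 2, because the second GFP-positive array read higher than the first and the second GFP-negative array read lower. The Crhbp difference was -2.03 and -2.05.

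Both differences lay far out among all features, and the genes were chosen with these values known. The absolute difference was larger than that of 98.6% of features for Hsd11b1 and 99.7% for Crhbp, and the median over all features was 0.13. Among genes with a symbol, 14 had a larger positive difference than Hsd11b1 and 5 a larger negative one than Crhbp. Among all features, unnamed probes included, these counts were 162 and 15. Groups without overlap were common, since 55.8% of the 15215 features had none, so the lack of overlap sets neither gene apart.

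**Figure D2:**
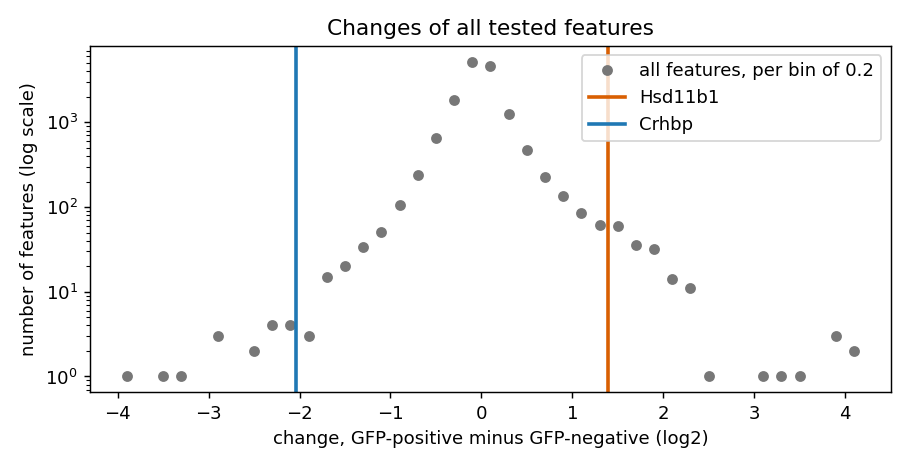
Difference between GFP-positive and GFP-negative means (log2, horizontal axis) against the number of features in bins (log scale, vertical axis) over 15215 features, as grey points, with vertical lines at Hsd11b1 (+1.40) and Crhbp (-2.04). Hsd11b1 lies on the upper flank, with 162 features beyond it, and Crhbp in the lower tail, with 15 beyond it.

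Other genes were read from 8 lists, on glucocorticoid and CRH biology, the enzyme family of Hsd11b1 and genes induced by IL-4. Of their 187 genes (Hsd11b1 and Crhbp left out), 50 were detected on at least 2 arrays and tested. In all, 3 rose, 4 fell and 43 were not called by limma at an adjusted p under 0.05, so 14% were called, against 11.1% of all 15215 features (5.83% higher and 5.29% lower). Of the calls, 2 rises and 2 falls were in the list of genes induced by IL-4. The 14% is therefore not a share of glucocorticoid and CRH genes alone. Outside the IL-4 list, only Sgk1 was called higher and only Hsp90ab1 and Foxo1 lower. All 8 lists were chosen with earlier results of these data known, so the 14% is no independent test of them. The median change over the 50 genes was -0.0025, against -0.017 over all features.

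The list of glucocorticoid activation and inactivation held 2 tested genes apart from Hsd11b1, for which no test is reported, and neither of the 2 was called. Slc37a4, the glucose-6-phosphate transporter that feeds the enzyme's supply of NADPH, read 8.31 and 8.33 in GFP-positive cells, against 8.36 and 8.40 in GFP-negative cells, a difference of -0.06 (SE 0.08, limma adjusted p = 0.696). Its probe was detected on all 4 arrays, but these values lay near 8.16, the edge given above for undetected probes. The probe of Hsd11b2, the enzyme that runs the opposite reaction, was not detected. Hexose-6-phosphate dehydrogenase (H6pd) had no matched probe and was not analysed here.

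The CRH and POMC list had 2 tested genes beside Crhbp, and neither was called. Pcsk2, a protease that cleaves prohormones such as POMC, read 8.16 and 8.25 in GFP-positive cells, against 8.23 and 8.07 in GFP-negative cells, a difference of +0.06 (SE 0.09, limma adjusted p = 0.766). These values are at the dim end, and the groups overlap. Without GFP-negative replicate 2 the difference was -0.024. The probe of Crh, the ligand of the carrier protein, was not detected, and the CRH receptors and urocortins had no matched probe and were not analysed here. Of the list for steroid synthesis, 3 genes were tested and none was called. Scarb1, a receptor that takes up cholesterol from lipoproteins, had the smallest p, with a difference of +0.20 (SE 0.11, limma adjusted p = 0.348).

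Among corticosteroid receptors and their chaperones, 1 of 8 tested genes fell, 0 rose and 7 were not called (5.29% of all features fell). Hsp90ab1, a chaperone that holds the glucocorticoid receptor ready for ligand, read 13.27 and 13.19 in GFP-positive cells, against 13.73 and 13.83 in GFP-negative cells. It fell by 0.55 (SE 0.08, limma adjusted p = 0.0168), and dimmer probes of the gene differed by -0.32 and -0.35. Leaving out GFP-positive array 1, GFP-positive array 2 or GFP-negative array 2 ended this call, with limma adjusted p = 0.0565, 0.0713 and 0.0834 in that order. The glucocorticoid receptor gene Nr3c1, named after its values were seen, read 8.21 and 8.21 in GFP-positive cells, against 8.13 and 8.30 in GFP-negative cells. It was detected on 2 of the 4 arrays and sat near the level of undetected probes, so a difference in receptor transcript was not measurable with this probe. Of 8 receptor coregulators none was called, and Ncoa1, a coactivator of steroid receptors, had the smallest p, with a difference of -0.38 (SE 0.12, limma adjusted p = 0.108). Blocking on replicate number, although no label pairs the arrays, let Ncoa1 pass (limma adjusted p = 0.0109).

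Few of the genes known to be induced by glucocorticoids were called. Of 12 tested, 1 rose, 1 fell and 10 were not called, with a median change of +0.02. Over all 15215 features, 5.83% were called higher and 5.29% lower. With 1 call each way, the list cannot be set apart from these shares. Sgk1, a kinase named for its induction by serum and glucocorticoids, read 10.67 and 10.52 in GFP-positive cells, against 9.69 and 8.82 in GFP-negative cells. The GFP-negative arrays were far apart, but both lay below the GFP-positive ones, and Sgk1 rose by 1.34 (SE 0.28, limma adjusted p = 0.0406). Leaving out GFP-positive array 1 or 2 ended this call (limma adjusted p = 0.144 and 0.106), and so did testing with no detection filter (0.0808). Foxo1, a transcription factor that also responds to growth-factor signalling, read 9.16 and 9.13 in GFP-positive cells, against 9.61 and 9.77 in GFP-negative cells. It fell by 0.54 (SE 0.09, limma adjusted p = 0.0204). Here too the call ended when GFP-positive array 1, GFP-positive array 2 or GFP-negative array 2 was left out (limma adjusted p = 0.0786, 0.0792 and 0.0937 in that order). The probe of Tsc22d3 (GILZ), a widely used glucocorticoid response gene, was not detected, and Fkbp5 and Per1 had no matched probe and were not analysed here.

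The list of the enzyme family of Hsd11b1, the short-chain dehydrogenases and reductases, gave no call among its 7 tested genes. Their changes ran between -0.26 and +0.31. The upper end was Dhrs7, an enzyme of the endoplasmic reticulum, which read 10.60 and 10.64 in GFP-positive cells, against 10.31 and 10.30 in GFP-negative cells (SE 0.08, limma adjusted p = 0.0631). It passed after cyclic loess (adjusted p = 0.0444), with no detection filter (adjusted p = 0.0349), and under the replicate block (adjusted p = 0.0192), but not under eBayes with trend (adjusted p = 0.152).

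Genes known to be induced by IL-4, a cytokine of the culture, went both ways. Of 8 tested, 2 rose, 2 fell and 4 were not called (over all features, 5.83% were higher and 5.29% lower). Their median change was +0.01. This list, like the others, was chosen with earlier results of these data known, so its counts and p-values are no independent test. Il4i1, a secreted amino acid oxidase, and Fcer2a, the low-affinity IgE receptor, were lower in GFP-positive cells, by -2.99 (SE 0.21) and -2.36 (SE 0.27) with limma adjusted p = 0.00188 and 0.00741. A dimmer probe of Fcer2a differed by -1.64. Socs2, an inhibitor of cytokine signalling, rose by 1.07 (SE 0.19, limma adjusted p = 0.0266), and Xbp1, the transcription factor of the secretory program, rose by 0.88 (SE 0.13, limma adjusted p = 0.0161). Leaving out either GFP-negative array ended the call of Socs2 (limma adjusted p = 0.0625 for the first and 0.0586 for the second), and leaving out GFP-positive array 2 ended that of Xbp1 (0.0601). Fcer2a is also among the B-cell markers and Xbp1 among the plasma-cell markers described below.

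**Figure D3:**
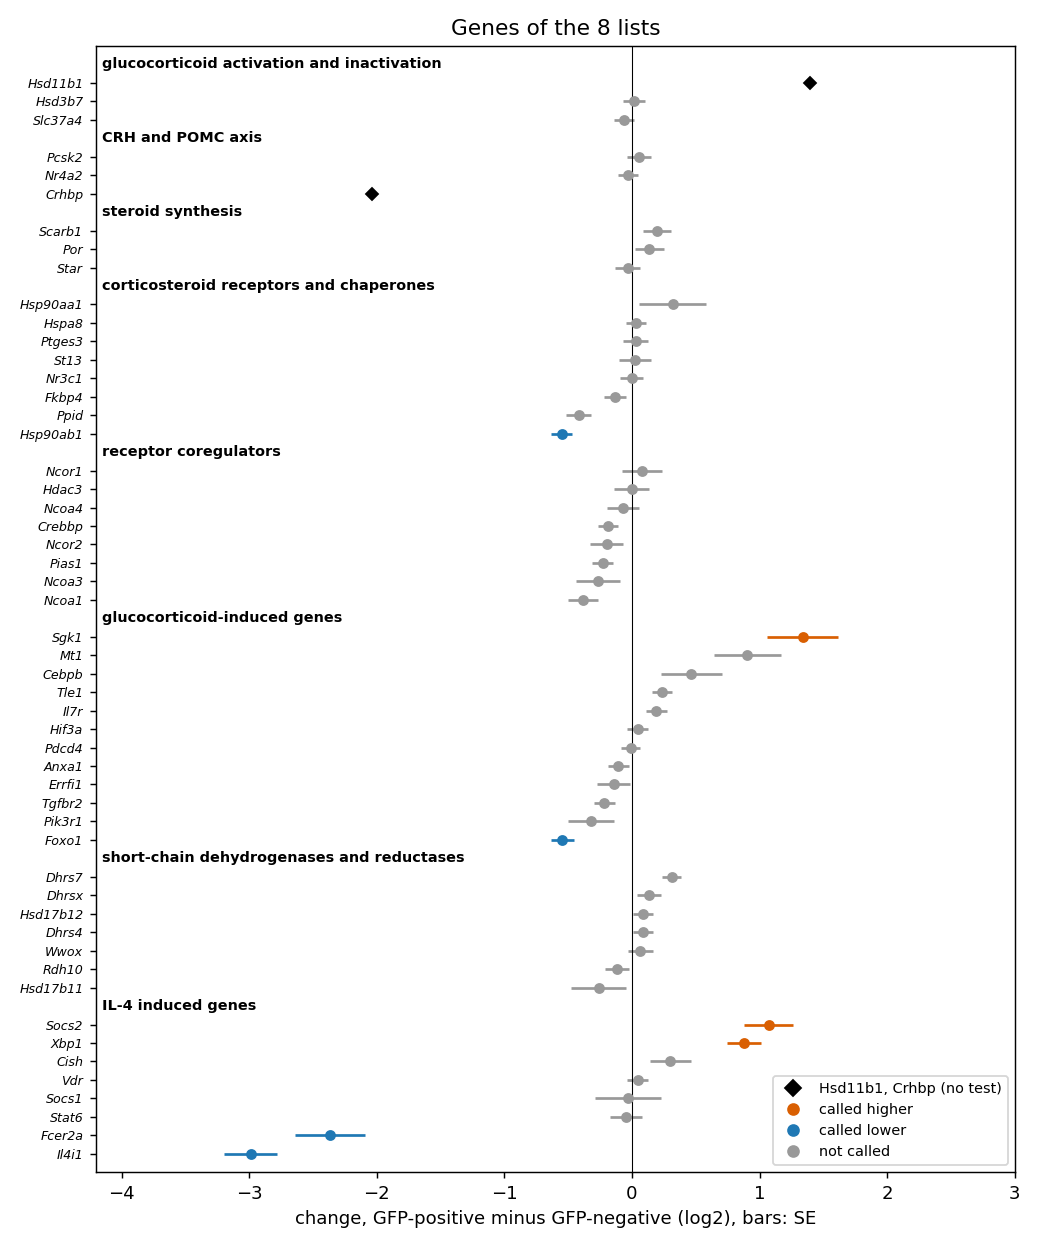
Change between GFP-positive and GFP-negative cells (log2, horizontal axis, bars are SE) of each tested gene of the 8 lists. Hsd11b1 and Crhbp are black diamonds, and no test of them is reported. Orange points are the genes called higher (Sgk1, Socs2, Xbp1), blue those called lower (Hsp90ab1, Foxo1, Il4i1, Fcer2a), and grey those not called.

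Markers of other cells were set beside these results, since macrophages and stromal cells are known sources of Hsd11b1. Of 7 macrophage and dendritic cell markers with a matched probe, 3 were detected and 0 were called, and the probes of the defining genes Lyz2, Csf1r, C1qa and C1qb were not detected. The summed log2 level of the 3 detected ones (Cd68, Itgam and Zbtb46) was 25.64 to 25.72 on GFP-positive arrays, against 24.85 to 25.17 on GFP-negative arrays, and its part in the Hsd11b1 difference was not tested. Itgam was detected on 2 arrays, and its GFP-negative values (7.96 and 7.98) lay below 8.16, so it entered this sum through its GFP-positive values (8.30 and 8.28). Of 7 stromal markers with a matched probe only Pecam1 was detected, and the probes of Col1a1, Col1a2, Col3a1 and Dcn were not. Of the B-cell markers with a matched probe, all 6 were detected and 5 were lower in GFP-positive cells. Of 4 plasma-cell markers with a matched probe, 3 were detected and all 3 were higher, while the probe of Sdc1 was not detected. Jchain, one of these 3, was detected on 2 arrays and read 9.84 and 9.34 in GFP-positive cells, against 8.16 and 7.95 in GFP-negative cells, so it had to differ to be tested and adds nothing to that count. The B-cell label was checked on those 6 alone, among them Cd74, Ebf1 and Cd40. The marker lists too were chosen with earlier results of these data known, so their directions are no independent check of the populations.

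The genes whose pattern was most like each member were found by the distance over the 4 arrays between log2 values centred on each gene's mean, where 0 is an identical pattern. Only tested genes with a symbol were searched, and symbols of clones and gene models were left out. An unnamed probe closer to a member would therefore not be listed. Nearest to Hsd11b1 were Ccng1, a cyclin known as a p53 target (distance 0.13), the adhesion protein gene Amigo2 (0.15), the cytokine gene Il18 (0.16), the sialyltransferase gene St3gal6 (0.18) and Mtdh (0.21). They also read higher on both GFP-positive arrays, by between +1.22 (Mtdh) and +1.45 (St3gal6). In all 5, as in Hsd11b1, the second GFP-positive array read higher than the first and the second GFP-negative array lower, although by little in Amigo2 (10.87 and 10.86 on the GFP-negative arrays). Nearest to Crhbp were the chromatin organiser Satb1 (0.30), the antiproliferative gene Btg1 (0.32), the repressor Bach2 (0.36), Smim14 (0.37) and the sorting receptor gene Sorl1 (0.41). Their differences ran between -2.20 (Satb1) and -1.68 (Smim14), and none was as close to Crhbp as the 5 above were to Hsd11b1. The members themselves were 3.45 apart. All these genes were picked for their pattern on these 4 arrays, so no test is given.

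**Figure D4:**
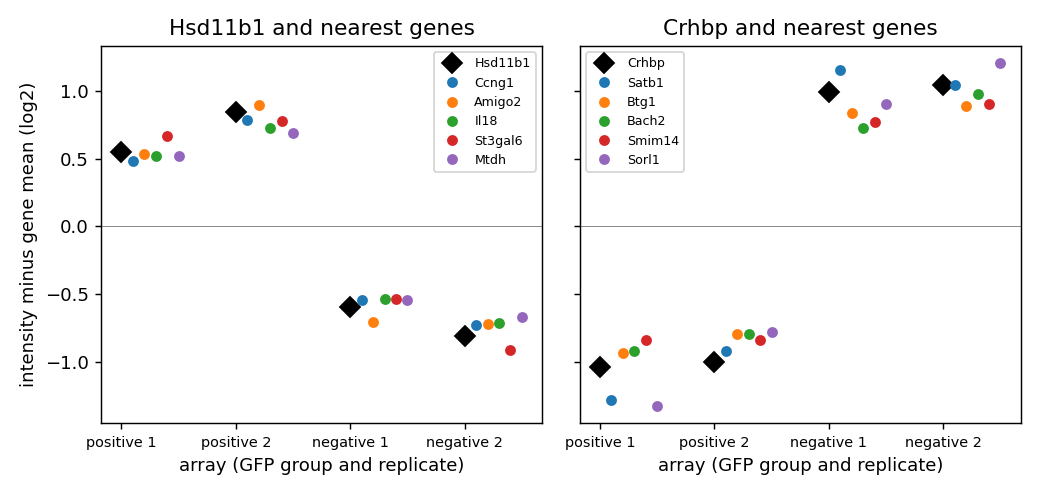
Intensity minus the gene's own mean (log2, vertical axis) on the 4 arrays (horizontal axis) for Hsd11b1 and Crhbp (black diamonds). Coloured points, offset sideways, are the 5 nearest genes of each among genes with a symbol (clones and gene models left out). The neighbours of Hsd11b1 lie within 0.21 of it by the distance, and those of Crhbp between 0.30 and 0.41.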

How the data were processed

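RNA of 4 sorted samples was hybridised to single-colour Illumina bead arrays. The deposited normalized intensities, on a log2-like scale, were made with lumi per the submitters' processing notes. No version, background step or transformation is stated there. The arrays' sorted values differed by at most 0.00267, with a median of 8.09 and a range of 7.71 to 16.07. Another deposited table holds detection p-values per the file headers, used only to count arrays with p under 0.05. Its 4 signal columns match no label and were not used.

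Names beginning scl and 1 or 2 zeros were read as Gene IDs, of which 82.6% matched RefSeq. Probes detected on at least 2 arrays were kept (15787), each gene by its brightest probe, giving 15215 features, fitted with limma 3.58.1 in R 4.3.3 (lmFit, eBayes, two-sided, no block, 2 residual degrees of freedom) and adjusted by Benjamini and Hochberg over all features. The fit was tested on simulated data. The number of arrays limits the precision.

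Members and lists were chosen with earlier results of these data known. Named were the members, up to 4 called genes of each list with the largest change (or the smallest p), and 5 nearest genes with a symbol per member. Alternatives were cyclic loess, the mean of a gene's probes, other detection filters, eBayes with trend, a replicate block and leaving out each array. Same-numbered arrays deviated together (r = 0.44 across features), but the labels state no pairing.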

Additional observations from a re-analysis of the deposited data

How the results depend on the processing

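The Hsd11b1 difference stayed between 1.25 and 1.54 and the Crhbp difference between -2.07 and -2.01 when each array was left out, and after cyclic loess they were +1.43 and -2.01. With a replicate block, 1861 features were higher and 2125 lower, and 8 listed genes were higher and 6 lower, but the labels state no pairing. Leaving out each array gave 492 to 618 features higher and 336 to 610 lower, and 1 to 4 listed genes higher and 2 to 4 lower, with fewer samples in each fit. The other filters, cyclic loess, the mean of a gene's probes and the trend kept these counts within 1.5 times. Of 119 values of the 12 named list genes under the alternatives, 102 kept direction and side of the threshold, 12 lost the call, 4 gained it (Dhrs7 3 times, Ncoa1 once, under the block) and 1 turned in sign (Pcsk2, whose difference ran between -0.024 and +0.14 over the left-out arrays). The number of arrays limits all of these values, and the dim end of the scale limits those of genes near it, such as Pcsk2.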
